A study of Homo sapiens with 10 samples.

Results

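The genes of glycolysis, with the transporters that bring glucose in and carry lactate out and the enzymes that pass pyruvate to the mitochondria or hold it back, were followed across 10 culture conditions of colon cancer and monocytic cell lines. The list names 34 genes, and 32 of the 19775 genes on the array belong to it. The lactate transporters SLC16A1 and SLC16A3 had no probe set under their own symbol and were not analysed here, so the values below cover glucose uptake and the enzymes, not lactate export. Each gene is given by 1 probe set, the brightest of those annotated to that gene alone. All 32 genes passed the filter on dim genes, which asked for a value above 6.18 log2, the median of the table, on at least 1 of the 8 colon cancer arrays.

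HCT116 is a human colorectal carcinoma line, and Hke3 is a clone derived from it. THP1 is a human monocytic leukaemia line, called macrophages in the labels. The 10 one-colour Affymetrix arrays held 1 array for each of 10 conditions. Hke3 was profiled in coculture with THP1 and vitamin D3, in coculture with THP1, with vitamin D3, and alone; HCT116 was profiled in the same 4 conditions, and THP1 with vitamin D3 and alone. In coculture the cancer cells and THP1 cells shared medium without touching. Vitamin D3 was given for 24 hours. No condition has a replicate, so the arrays that share a line and a culture but differ in vitamin D3 serve as pairs, and p-values measure only the spread between these arrays.

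Glycolysis splits glucose into pyruvate in the cytosol and yields ATP without oxygen. Hexokinases trap glucose in the cell, phosphofructokinase sets the pace, and lactate dehydrogenase turns pyruvate into lactate and restores NAD. The pyruvate dehydrogenase complex sends pyruvate to the citric acid cycle instead, and the PDK kinases switch that complex off. Tumour cells often run glycolysis fast even in oxygen, and many genes of the pathway are known targets of hypoxia-inducible factors, which bind the letters ACGTG or GCGTG in DNA.

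The arrays were checked against their labels. The epithelial markers were above 6.18 log2 for 12 of 12 genes on all 8 cancer arrays and for 5 of 12 on both THP1 arrays. Of 14 measured myeloid markers, 14 were above it in THP1 and 4 or 5 in the cancer lines. By limma at an adjusted p under 0.05, 13 of the 14 were higher in THP1 (28.1% of all genes). Of the 12 epithelial markers 11 were lower there (40.2% of all genes). Most markers thus matched the labelled cell types. The myeloid gene ITGAM stood at 6.72 and 6.73 log2 in THP1 and 6.64 to 7.01 on the cancer arrays. The epithelial gene CDX1 stood at 7.68 and 7.64 in THP1 and 7.45 to 7.77 on the cancer arrays. CYP24A1, the vitamin D-degrading enzyme that vitamin D3 induces, was higher with vitamin D3 in monoculture (by 1.45 log2 in Hke3 and 1.44 in HCT116) and in THP1 (by 5.88), but lower on the cocultured arrays labelled with vitamin D3 (-1.36 in Hke3 and -0.98 in HCT116). CYP24A1 thus goes against the vitamin D3 labels of the cocultured arrays, and 1 label field of the Hke3 vitamin D3 array calls it untreated. The ACTB 3' minus 5' difference, which grows as RNA degrades, was 0.56 to 0.94 log2 in Hke3, 0.16 to 0.30 in HCT116 and -0.01 to 0.09 in THP1.

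With coculture, 18 of the 32 glycolysis genes rose in Hke3 and none fell, whereas 3 rose in HCT116 and none fell. Over all 13243 genes tested, 4.09% rose and 3.06% fell in Hke3, and 7.66% rose and 8.31% fell in HCT116 (limma, Benjamini-Hochberg adjusted p under 0.05 over all genes tested). The share of the 32 that rose was 56.2% in Hke3 and 9.38% in HCT116. The median coculture difference of the 32 genes was 0.39 log2 in Hke3 and 0.00 in HCT116, against -0.01 and -0.02 over all genes tested. The line difference passed the same threshold for 10 of the 32 genes, all with the larger coculture value in Hke3, against 1.87% of all genes with the larger and 2.34% with the smaller value in Hke3. In Hke3 both cocultured arrays lay above both monoculture arrays for 27 of 32 genes (26% of all genes tested), and in HCT116 for 9 of 32 (25.3% of all genes tested). By pair, the median difference was 0.49 log2 in the Hke3 pair labelled with vitamin D3 and 0.32 in the Hke3 pair without it. It was 0.10 in the HCT116 pair labelled with vitamin D3 and -0.04 in the HCT116 pair without it. Over all genes tested the pair medians were 0.003, -0.02, -0.002 and -0.04 in the same order. These pairs follow the vitamin D3 labels, against which CYP24A1 goes in coculture.

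The Hke3 count rests on 4 arrays, and it was 6 to 11 when any 1 of them was left out. The HCT116 count was 0 without the cocultured array labelled with vitamin D3 or without either monoculture, and the line difference passed for 2 to 5 of the 32 genes when any 1 cancer array was left out. On the cocultured Hke3 array with vitamin D3 the myeloid gene SRGN reached 6.28 log2 (14.05 and 13.90 in THP1). It stood at 4.90 on the other cocultured Hke3 array and at 4.38 and 4.72 in Hke3 monoculture. Of the 14 myeloid markers 5 passed the filter on dim genes. Of these, 0 passed the threshold with coculture in Hke3 (limma, median difference 0.04 log2). The median level of the 14 was 5.54 and 5.40 log2 in cocultured Hke3 and 5.32 and 5.49 in Hke3 monoculture. The summed log2 level of the 14 myeloid markers, whose CD45 gene PTPRC stood at 4.25 and 4.42 in cocultured Hke3 and at 4.11 and 4.06 in Hke3 monoculture, was 78.5 on both cocultured Hke3 arrays and 76.8 and 77.6 on both monoculture arrays. In HCT116 that sum was 77.1 and 77.8 in coculture and 78.0 and 77.7 in monoculture, and in THP1 it was 156.6 and 149.1. The ACTB 3' minus 5' difference was 0.56 and 0.62 log2 in cocultured Hke3 and 0.72 and 0.94 in Hke3 monoculture. It was 0.23 and 0.16 in cocultured HCT116 and 0.25 and 0.30 in HCT116 monoculture. The part of these values in the coculture differences was not tested.

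More than 2-fold higher in cocultured Hke3 were 6 of the 32 genes, which 50 of all 13243 genes tested did (0.378%). They were ALDOC, PFKFB4, ENO2, PDK1, HK2 and SLC2A1. The 250 bases before their start sites are shown so that the letters bound by hypoxia-inducible factors can be read where they occur. The 6 genes were picked by their rise, and a link between the rise and these letters was not tested. The sequences are RefSeq's, build GRCh38.p14, 5′ to 3′ on the strand of the gene, with every ACGTG or GCGTG on either strand in capitals (CACGT and CACGC are the same letters read from the other strand). Where a gene has 2 windows, the one with more ACGTG is shown.
ALDOC, chr17:28576896-28577145, minus strand: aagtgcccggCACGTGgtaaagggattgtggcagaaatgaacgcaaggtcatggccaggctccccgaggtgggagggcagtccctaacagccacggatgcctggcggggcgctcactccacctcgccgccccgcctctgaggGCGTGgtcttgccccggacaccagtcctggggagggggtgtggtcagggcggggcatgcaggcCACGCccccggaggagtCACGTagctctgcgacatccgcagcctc
PFKFB4, chr3:48556804-48557053, minus strand: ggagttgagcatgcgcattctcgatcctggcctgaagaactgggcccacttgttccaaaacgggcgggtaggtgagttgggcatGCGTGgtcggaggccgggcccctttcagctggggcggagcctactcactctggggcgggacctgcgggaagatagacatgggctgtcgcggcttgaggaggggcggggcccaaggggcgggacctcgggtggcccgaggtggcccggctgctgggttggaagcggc
ENO2, chr12:6914330-6914579, plus strand: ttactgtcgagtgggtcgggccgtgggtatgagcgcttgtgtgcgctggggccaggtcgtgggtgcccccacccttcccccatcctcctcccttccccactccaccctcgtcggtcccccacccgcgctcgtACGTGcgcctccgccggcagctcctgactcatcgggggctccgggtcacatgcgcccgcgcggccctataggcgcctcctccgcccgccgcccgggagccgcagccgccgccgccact
PDK1, chr2:172555840-172556089, plus strand: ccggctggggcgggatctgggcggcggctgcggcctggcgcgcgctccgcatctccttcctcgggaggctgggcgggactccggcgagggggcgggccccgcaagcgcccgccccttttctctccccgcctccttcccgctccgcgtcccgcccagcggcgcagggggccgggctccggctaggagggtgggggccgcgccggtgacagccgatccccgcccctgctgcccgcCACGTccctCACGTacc
HK2, chr2:74834920-74835169, plus strand: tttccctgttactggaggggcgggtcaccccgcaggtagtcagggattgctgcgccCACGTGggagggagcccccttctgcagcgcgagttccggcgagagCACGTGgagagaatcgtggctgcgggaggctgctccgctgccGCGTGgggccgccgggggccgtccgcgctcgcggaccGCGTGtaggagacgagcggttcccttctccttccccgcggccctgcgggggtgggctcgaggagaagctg
SLC2A1, chr1:42958869-42959118, minus strand: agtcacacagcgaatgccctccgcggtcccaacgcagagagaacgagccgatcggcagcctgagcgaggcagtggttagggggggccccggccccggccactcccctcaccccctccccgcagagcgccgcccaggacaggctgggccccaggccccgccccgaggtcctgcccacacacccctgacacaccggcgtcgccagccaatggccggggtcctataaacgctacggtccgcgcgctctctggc

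Counting both strands, with CACGTG counted once on each, the shown bases hold 3 ACGTG and 2 GCGTG for ALDOC, 4 and 2 for HK2, 2 and 0 for PDK1, 1 and 0 for ENO2, and 0 and 1 for PFKFB4. The shown bases of SLC2A1 hold neither, and its full window of 300 bases, which runs 50 bases past the start, holds 1 GCGTG. Windows were found for 30 of the 32 genes, 57 windows in all. ACGTG stood in 14 of 33 windows (42.4%) of the 18 genes that rose in cocultured Hke3 and in 8 of 24 windows (33.3%) of the other genes with a window. Counted by gene, at least 1 window held it for 61.1% of the genes that rose and 58.3% of the others. That share was 24.9% of all genes of the table and 28.8% of genes on the array. It also depends on the number of windows, which was 57 for these 30 genes and 35116 for the 27305 genes of the table. ACGTG stood in 21.4% of all 35116 windows of the table and in 23.3% of the windows of genes on the array. GCGTG stood in 48.5% of the windows of the genes that rose and 37.5% of those of the other genes. It stood in 36.5% of all windows and in 43.2% of the windows of genes on the array. CACGTG stood in 12.1%, 16.7%, 7.26% and 8.36% of them, in the same order. The median GC content was 68% in the windows of the genes that rose and 65.7% in those of the other genes. It was 58.7% in all windows and 62.7% in the windows of genes on the array. Windows of 1 gene can overlap, and the counts are a description of these letters, not of binding.

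**Figure D1:**
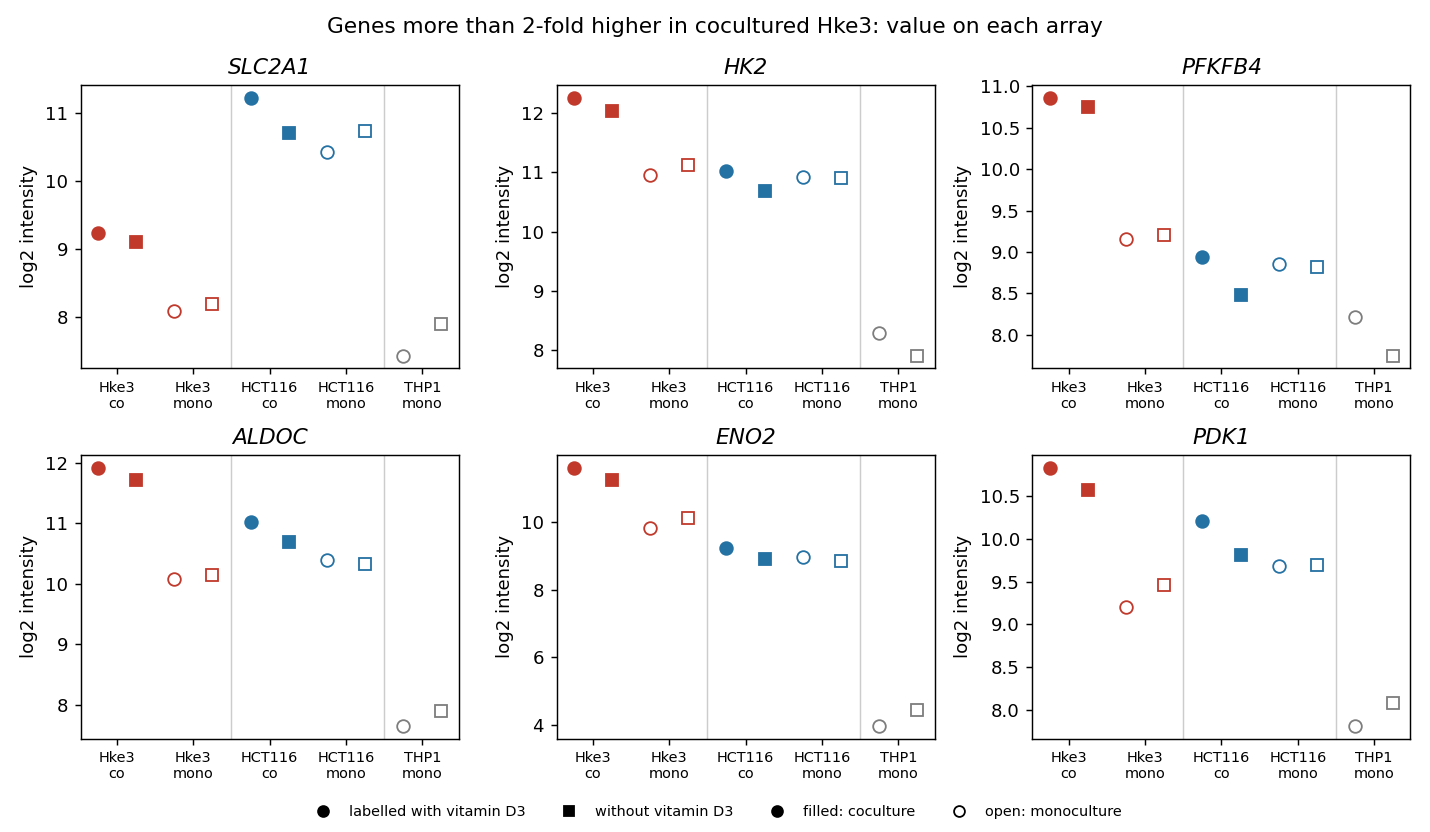
Log2 intensity on each of the 10 arrays for the 6 genes that rose more than 2-fold in cocultured Hke3; filled points are cocultures, open points monocultures, circles arrays labelled with vitamin D3 and squares arrays without it, and each panel has its own axis. In every panel both cocultured Hke3 arrays sit above both Hke3 monocultures, while the HCT116 points differ less and the THP1 points are lowest.

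Glucose enters through facilitative transporters. SLC2A1, which encodes the common glucose transporter GLUT1, stood at 9.23 and 9.10 log2 in cocultured Hke3 (with and without vitamin D3), against 8.08 and 8.19 in Hke3 monoculture. In HCT116 it stood at 11.22 and 10.71 in coculture, against 10.43 and 10.73 in monoculture. The Hke3 groups did not overlap, and the HCT116 groups did, because only the array labelled with vitamin D3 was high. SLC2A1 rose 2.04-fold in Hke3 (log2 1.03 ± 0.17, SE, adjusted p = 0.0169, limma), and its difference in HCT116 was 0.39 (adjusted p = 0.162). The line difference did not pass (0.65 ± 0.24, adjusted p = 0.167). Its level in cocultured Hke3 was below that in cocultured HCT116 (-1.80 ± 0.17, adjusted p = 0.000272). SLC2A3, which encodes the high-affinity transporter GLUT3, differed by 0.59 in Hke3 (adjusted p = 0.0831) and 0.30 in HCT116 (adjusted p = 0.273). Its probe set is dim, with a mean of 5.84 log2 in Hke3 monoculture, so its differences are approximate.

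The hexokinases commit glucose to the cell. HK2, the inducible hexokinase of many tumours, stood at 12.26 and 12.03 log2 in cocultured Hke3, against 10.96 and 11.13 in Hke3 monoculture. It stood at 11.02 and 10.68 in cocultured HCT116, against 10.92 and 10.90 in HCT116 monoculture. Both cocultured Hke3 arrays lay above the other 6 cancer arrays, and the HCT116 groups overlapped. HK2 rose 2.15-fold in Hke3 (log2 1.10 ± 0.12, adjusted p = 0.00322, limma) and differed by -0.06 in HCT116, and the line difference passed (1.16 ± 0.17, adjusted p = 0.0145). A dimmer HK2 probe set, at most 7.02 log2, gave -0.26 in Hke3 and did not pass, and another, at most 6.30 log2, gave -0.16. HK1, the widely expressed hexokinase, rose 1.60-fold in Hke3 (0.67 ± 0.08, adjusted p = 0.00409) and differed by 0.04 in HCT116 (line difference 0.63 ± 0.11, adjusted p = 0.0236). HKDC1, a hexokinase-related gene, rose in HCT116 (1.13 ± 0.28, adjusted p = 0.0349, approximate because its HCT116 monoculture mean was 5.97 log2). Its line difference did not pass (-1.38, adjusted p = 0.101), and neither did its difference in Hke3 (-0.26 ± 0.28, adjusted p = 0.625).

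Upper glycolysis runs from glucose 6-phosphate to the triose phosphates, and 6 of its 7 genes rose in Hke3. ALDOC, an aldolase that splits fructose 1,6-bisphosphate, stood at 11.91 and 11.71 log2 in cocultured Hke3, against 10.08 and 10.15 in Hke3 monoculture. In HCT116 it stood at 11.01 and 10.70 in coculture, against 10.38 and 10.32 in monoculture. Neither line's groups overlapped. ALDOC rose 3.24-fold in Hke3 (log2 1.70 ± 0.10, adjusted p = 0.000563, limma) and by 0.50 ± 0.10 in HCT116 (adjusted p = 0.0163), the 1 gene of the 32 that rose in both lines. The line difference was 1.19 ± 0.14 (adjusted p = 0.00673). The aldolase ALDOA rose by 0.57 ± 0.08 in Hke3 (adjusted p = 0.00954), with 0.04 in HCT116 and a line difference past the threshold (0.53, adjusted p = 0.0479). GPI, which turns glucose 6-phosphate into fructose 6-phosphate, stood at 14.17 and 13.98 log2 in cocultured Hke3, against 13.15 and 13.17 in Hke3 monoculture. It rose 1.88-fold there (0.91 ± 0.11, adjusted p = 0.00478). In HCT116 GPI stood at 13.46 and 13.23 log2 in coculture, against 13.00 and 13.19 in monoculture. Its difference there was 0.25 (adjusted p = 0.163), and the line difference did not pass (0.66, limma, adjusted p = 0.0561).

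Of the phosphofructokinase subunits, which make the committed step, PFKP rose by 0.58 ± 0.07 in Hke3 (adjusted p = 0.00547, limma) and PFKL by 0.42 (adjusted p = 0.0173). PFKM, the muscle-type subunit, differed by 0.09 (95% interval -0.06 to 0.24, adjusted p = 0.414). The line difference passed for PFKP (0.49, adjusted p = 0.0413) and not for PFKL (0.25, adjusted p = 0.184). TPI1, which interconverts the triose phosphates, rose by 0.34 in Hke3 (adjusted p = 0.0355) and differed by -0.11 in HCT116. The line difference of TPI1 did not pass on the set used (0.45, limma, adjusted p = 0.0573). PGM1, which links glucose 1-phosphate from glycogen to the pathway, differed by 0.27 in Hke3 (adjusted p = 0.0571) and 0.16 in HCT116 (adjusted p = 0.162).

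The PFKFB enzymes make and break fructose 2,6-bisphosphate, the strongest activator of phosphofructokinase. PFKFB4 stood at 10.86 and 10.75 log2 in cocultured Hke3, against 9.15 and 9.20 in Hke3 monoculture. It stood at 8.94 and 8.48 in cocultured HCT116, against 8.85 and 8.81 in HCT116 monoculture. The cocultured Hke3 arrays were apart from the other 6, and the HCT116 groups overlapped. PFKFB4 rose 3.10-fold in Hke3 (log2 1.63 ± 0.12, adjusted p = 0.00106, limma) and differed by -0.12 in HCT116, the widest line difference of the 32 genes (1.75 ± 0.16, adjusted p = 0.00384). The other enzymes of this family did not pass in either line. PFKFB3 differed by 0.27 in Hke3 (adjusted p = 0.109) and -0.04 in HCT116, and PFKFB2 by -0.02 and -0.01.

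**Figure D2:**
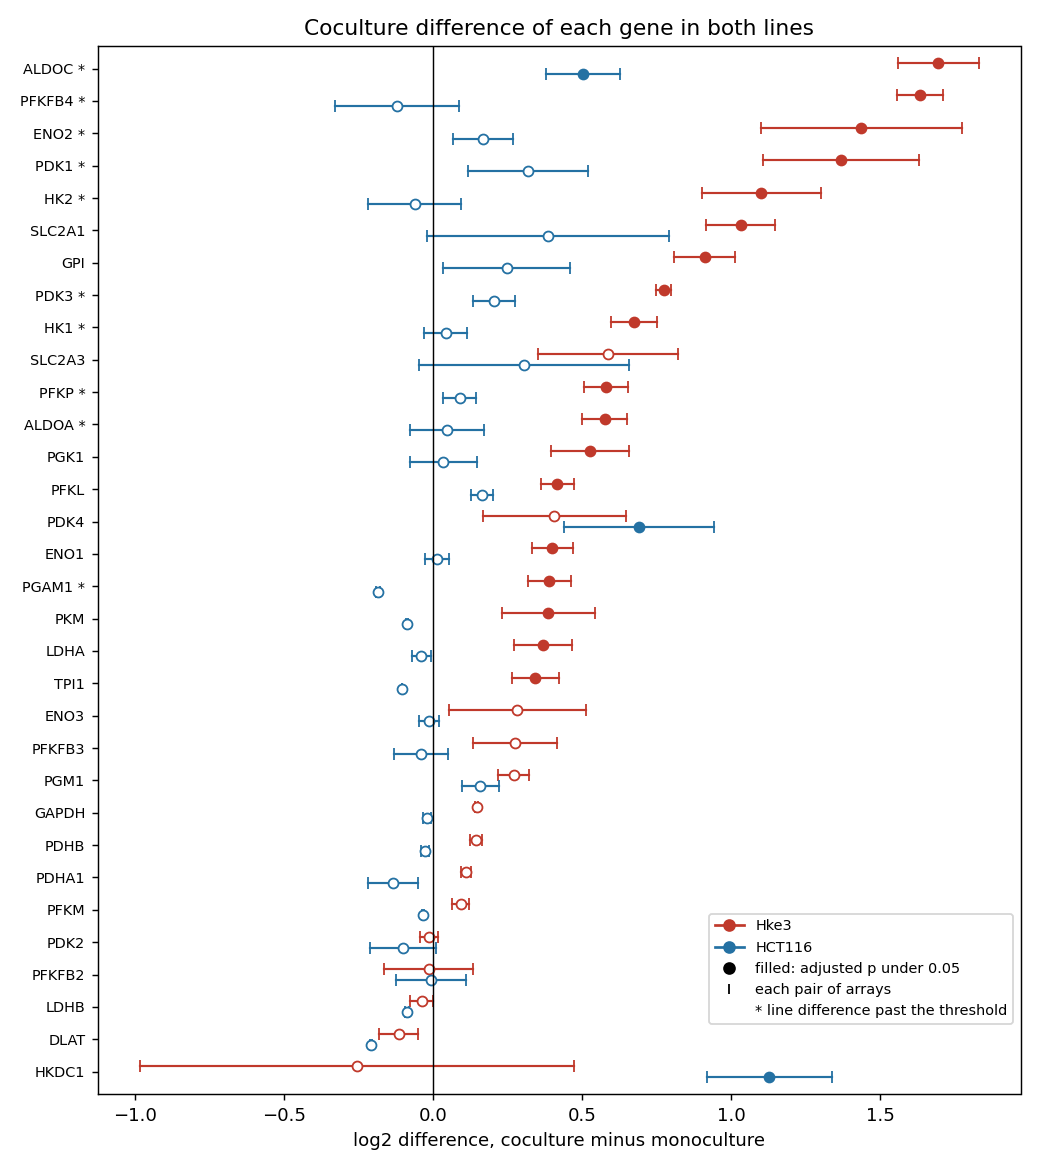
Log2 difference of coculture minus monoculture for each of the 32 genes in Hke3 (red) and HCT116 (blue); circles are the fitted means, filled where the adjusted p is under 0.05, ticks are both pairs of arrays of the line, and an asterisk marks a line difference past the threshold. The Hke3 value is the higher one for 29 of 32 genes, and ALDOC, PFKFB4 and ENO2 stand at the top.

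Lower glycolysis, from glyceraldehyde 3-phosphate to pyruvate, had 5 of 7 genes higher in cocultured Hke3 and none in cocultured HCT116. The line difference passed for 2 of the 7, ENO2 and PGAM1. ENO2, the neuron-type enolase, stood at 11.60 and 11.24 log2 in cocultured Hke3, against 9.83 and 10.14 in Hke3 monoculture. It stood at 9.23 and 8.92 in cocultured HCT116, against 8.97 and 8.85 in HCT116 monoculture. All 4 Hke3 arrays lay above all 4 HCT116 arrays, and the cocultured ones were highest. ENO2 rose 2.71-fold in Hke3 (log2 1.44 ± 0.15, adjusted p = 0.00308, limma) and differed by 0.17 in HCT116, with a line difference of 1.27 ± 0.21 (adjusted p = 0.022). ENO1, the main enolase of most tissues, rose by 0.40 ± 0.07 in Hke3 (adjusted p = 0.0214) and differed by 0.01 in HCT116. The line difference of ENO1 did not pass on the set used (0.39, limma, adjusted p = 0.079). ENO3, the muscle-type enolase, differed by 0.28 in Hke3 (adjusted p = 0.181).

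PGK1, which makes the first ATP of the pathway, stood at 14.25 and 14.08 log2 in cocultured Hke3, against 13.59 and 13.68 in Hke3 monoculture. It rose by 0.53 ± 0.09 (adjusted p = 0.0177, limma) and differed by 0.03 in HCT116. The line difference of PGK1 did not pass on the set used (0.49, limma, adjusted p = 0.0736). PGAM1, the phosphoglycerate mutase that precedes enolase, rose by 0.39 ± 0.07 in Hke3 (adjusted p = 0.0213) and differed by -0.19 in HCT116, with a line difference past the threshold (0.58, adjusted p = 0.0236). PKM, the pyruvate kinase gene of most tissues, rose by 0.39 in Hke3 (adjusted p = 0.0469) and differed by -0.09 in HCT116. The line difference of PKM did not pass (0.47, limma, adjusted p = 0.0862). GAPDH, often used as a reference gene, lay near the highest value of the table, 15.15 log2, on the cancer arrays. It differed by 0.15 in Hke3 (95% interval 0.00 to 0.29, adjusted p = 0.196).

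At the pyruvate branch, LDHA, the lactate dehydrogenase subunit that favours lactate over pyruvate, passed in Hke3 while LDHB, its counterpart, did not. LDHA stood at 14.55 and 14.46 log2 in cocultured Hke3, against 14.09 and 14.19 in Hke3 monoculture, and rose by 0.37 ± 0.07 (adjusted p = 0.0282, limma). LDHB stood at 14.10 and 14.11 in cocultured Hke3, against 14.10 and 14.19 in Hke3 monoculture, and differed by -0.04 (95% interval -0.19 to 0.11). In HCT116 LDHA differed by -0.04 and LDHB by -0.09, and neither passed. The line difference passed for neither gene (LDHA 0.41, adjusted p = 0.0711; LDHB 0.05, adjusted p = 0.809).

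Of the 4 PDK kinases, which hold the pyruvate dehydrogenase complex inactive, PDK1 and PDK3 rose in Hke3 and PDK4 in HCT116. PDK1 stood at 10.84 and 10.57 log2 in cocultured Hke3, against 9.21 and 9.47 in Hke3 monoculture. It stood at 10.21 and 9.81 in cocultured HCT116, against 9.69 and 9.70 in HCT116 monoculture. On this probe set cocultured Hke3 was high and Hke3 monoculture low, with the HCT116 arrays between them. A dimmer PDK1 set, at most 8.68 log2, was lower in Hke3 than in HCT116 over both cultures. It gave -0.80 (limma, adjusted p = 0.00528 over all probe sets), against 0.17 for the set used. PDK1 rose 2.58-fold in Hke3 (log2 1.37 ± 0.14, adjusted p = 0.00317, limma), with 0.32 in HCT116 (adjusted p = 0.176) and a line difference of 1.05 ± 0.20 (adjusted p = 0.0357). PDK3 rose by 0.77 ± 0.07 in Hke3 (adjusted p = 0.00209); it differed by 0.20 in HCT116 (adjusted p = 0.0967; line difference 0.57, adjusted p = 0.0271). PDK4 rose by 0.69 ± 0.14 in HCT116 (adjusted p = 0.0193), a size that is approximate because its HCT116 monoculture mean was 5.96 log2, and differed by 0.41 in Hke3 (adjusted p = 0.128). The line difference of PDK4 did not pass (-0.28, limma, adjusted p = 0.456), and its groups overlapped in neither line. PDK2 differed by -0.01 in Hke3 and -0.10 in HCT116. The complex's own subunits PDHA1, PDHB and DLAT did not pass in either line; their differences were -0.12 to 0.14 in Hke3 and -0.21 to -0.03 in HCT116.

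Over both lines in 1 additive fit, 7 of the 32 genes rose with coculture and none fell, against 3.76% and 4.05% of all genes: SLC2A1, GPI, PFKL, ALDOC, PDK1, PDK3 and PDK4. Leaving out any 1 of the 4 cancer arrays labelled with vitamin D3 gave a count of 0, and leaving out any other gave 1 to 5. It was also 0 with the other 2 factors as a block of 4 pairs.

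In monoculture 7 of the 32 genes were higher and 5 lower in Hke3 than in HCT116. These shares, 21.9% and 15.6%, were close to those over all genes tested, 20.2% and 12.5%. Higher in Hke3 monoculture were HKDC1 (log2 3.07 ± 0.28, adjusted p = 0.000377, limma, approximate because HKDC1 was dim in HCT116), ENO2 (1.07 ± 0.15, adjusted p = 0.00184), PKM (0.55), PFKP (0.47), HK1 (0.46), PFKL (0.39) and PGM1 (0.22). Lower in Hke3 monoculture were SLC2A1 (-2.45 ± 0.17, adjusted p = 0.000122), SLC2A3 (-0.91), ENO1 (-0.37), PDHB (-0.32) and DLAT (-0.27). In coculture 19 of the 32 genes were higher and 3 lower in Hke3 (23.8% and 14.7% of all genes tested). The median difference of Hke3 minus HCT116 was 0.44 log2 in coculture and 0.00 in monoculture over the 32 genes, against 0.02 and 0.01 over all genes tested. ENO2 (2.34 ± 0.15, adjusted p = 6.82e-05) and PFKFB4 (2.10 ± 0.12, adjusted p = 4.6e-05) showed the widest gaps in coculture, and the lower 3 were SLC2A1, SLC2A3 and PDK4. Over both cultures together, 11 of 32 genes were higher and 5 lower in Hke3 (24.8% and 15.7% of all genes tested).

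**Figure D3:**
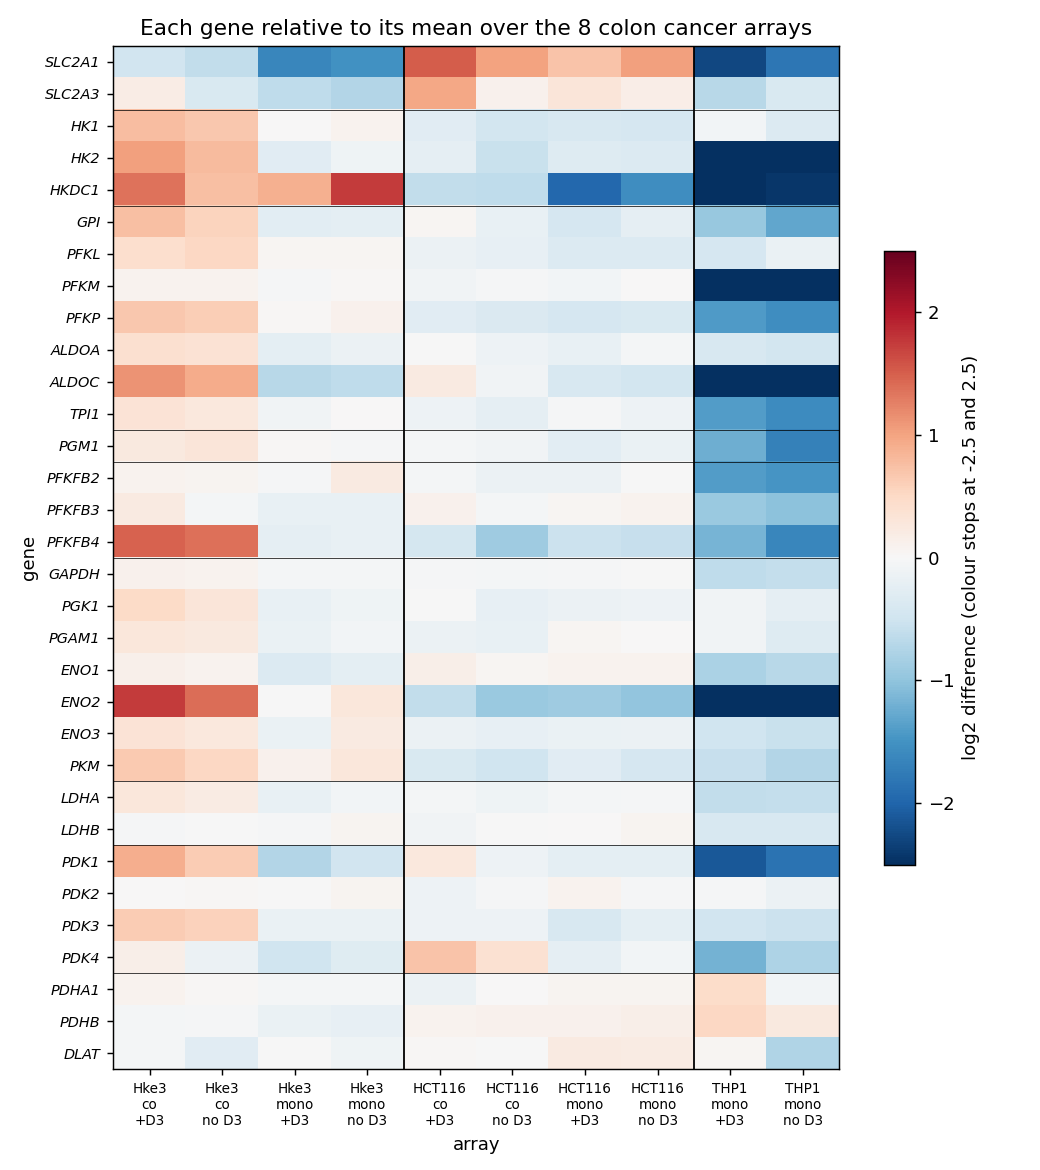
Each of the 32 genes (rows, ordered by step of the pathway) on each of the 10 arrays (columns), as the log2 difference from that gene's mean over the 8 colon cancer arrays; red is higher and blue lower, and colours stop at -2.5 and 2.5. Most rows are red in the cocultured Hke3 columns and blue in the THP1 columns, where PDHB is red on both arrays. On all 4 HCT116 arrays SLC2A1 is red and HKDC1, ENO2 and PFKFB4 are blue.

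THP1 was low for most of the pathway. With culture and vitamin D3 in the model, 22 of the 32 genes were lower and 1 higher in THP1 than in the mean of both colon cancer lines (40.2% and 28.1% of 13879 genes tested). Among the widest gaps were ENO2 (log2 -5.23 ± 0.31, adjusted p = 4.13e-07, limma), PFKM (-3.23 ± 0.14, adjusted p = 5.08e-08), HK2 (-2.87 ± 0.27) and ALDOC (-2.46 ± 0.27). ENO2 stood at 3.98 and 4.46 log2 in THP1 and HKDC1, which was also lower (adjusted p = 0.000253), at 4.72 and 5.29, all under 6.18, so their gaps are approximate. PDHB was the 1 gene higher in THP1 (0.41 ± 0.09, adjusted p = 0.00245). PGK1 (-0.02), HK1 (-0.03) and PDHA1 (0.18) did not pass. The array with the highest value was the cocultured Hke3 array with vitamin D3 for 18 of the 32 genes. The lowest was the untreated THP1 array for 18 and the THP1 array with vitamin D3 for 10. The share of all genes with their extreme on these arrays was not computed, so these counts have no background to be read against.

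No gene of the 32 passed the threshold for vitamin D3 over both cancer lines, and none of all 13243 genes did (0% called by limma; 375 genes and 1 of the 32 had an unadjusted p under 0.05, and the count was also 0 with trend and robust fitting). CYP24A1, with opposite signs in monoculture and coculture, differed by 0.14 log2 in this fit and did not pass either. The count of 0 thus cannot show that no gene responded to vitamin D3. The median vitamin D3 difference of the 32 genes was 0.08 log2 in cocultured Hke3 and -0.09 in Hke3 monoculture. It was 0.09 in cocultured HCT116 and -0.01 in HCT116 monoculture. Over all genes tested these medians were 0.02, -0.02, 0.005 and -0.04 in the same order. The test of whether the coculture difference depends on vitamin D3 called 0 of 32 and 0 of all genes (0%). An unadjusted p under 0.05 was reached by 3 of the 32 and by 652 of all genes (limma). The estimate was above 0 for 28 of the 32 genes, with a median of 0.15 log2. Over all genes tested its median was also above 0, at 0.04. These values rest on the vitamin D3 labels of the cocultured arrays, against which CYP24A1 goes. In THP1, where CYP24A1 was higher with vitamin D3, the difference of vitamin D3 minus untreated had a median of 0.09 log2 over the 32 genes and ran from -0.58 for HKDC1 to 0.79 for DLAT, with no replicate and no test. DLAT stood at 10.89 log2 with vitamin D3 and 10.10 without, PFKM at 8.58 and 7.97, and PDHA1 at 11.44 and 10.92.

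Genes of pathways next to glycolysis were read from the same fit. Over all genes tested, 4.09% rose and 3.06% fell in Hke3, and 7.66% rose and 8.31% fell in HCT116. Of 13 further isozymes and glucose transporters tested, out of 27 listed, 2 rose in Hke3 and 2 fell in HCT116. The 2 that rose in Hke3 were SLC2A12, a glucose transporter (log2 0.64, adjusted p = 0.0113), and LDHC, known as the testis lactate dehydrogenase (0.44, adjusted p = 0.0203). LDHC is dim, with a mean of 6.16 log2 in Hke3 monoculture and 6.60 in coculture, so its difference is approximate. Those that fell in HCT116 were PGAM5, a mitochondrial phosphatase (-0.49, adjusted p = 0.0103), and SLC2A5, a fructose transporter (-0.28, adjusted p = 0.0285). SLC2A5 stood at 6.36 and 6.44 log2 in cocultured HCT116, near 6.18, so its difference is also approximate. Of 7 genes of mitochondrial pyruvate entry, MPC2, a subunit of the pyruvate carrier, fell in HCT116 (-0.26, adjusted p = 0.0327), and none passed in Hke3. None of 4 monocarboxylate carriers and chaperones and none of 7 pentose phosphate genes passed in either line. Of 13 citric acid cycle genes, SDHC, a succinate dehydrogenase subunit, fell in Hke3 (-0.36, adjusted p = 0.0257) and IDH3A, an isocitrate dehydrogenase subunit, in HCT116 (-0.27, adjusted p = 0.0346). A single call in a list of 7 or 13 genes is not read as a result about that list.

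Of 7 glycogen and gluconeogenesis genes tested, 3 rose and 2 fell in Hke3, and 2 rose and 1 fell in HCT116. The shares over all genes tested were 4.09% and 3.06% in Hke3, and 7.66% and 8.31% in HCT116. Glycogen stores glucose, and GYS1 and GBE1 build it while phosphorylases break it down. GBE1, the branching enzyme, stood at 11.56 and 11.41 log2 in cocultured Hke3, against 10.48 and 10.49 in Hke3 monoculture. GBE1 rose there (95% interval 0.79 to 1.21 log2, adjusted p = 0.00209, limma) and differed by 0.14 in HCT116 (line difference 0.86, adjusted p = 0.0165). GYS1, muscle-type glycogen synthase, rose by 0.68 ± 0.07 in Hke3 (adjusted p = 0.00317) and fell by 0.30 in HCT116 (adjusted p = 0.0302). UGP2, which makes UDP-glucose, rose by 0.47 in Hke3 (adjusted p = 0.00807). PYGB, a glycogen phosphorylase, fell by 0.34 in Hke3 (adjusted p = 0.0429) and rose by 0.84 ± 0.08 in HCT116 (adjusted p = 0.00195; line difference -1.18, adjusted p = 0.00384). PCK2, the mitochondrial enzyme that makes phosphoenolpyruvate, fell by 0.47 in Hke3 (adjusted p = 0.00888), and the phosphorylase PYGL rose by 0.32 in HCT116 (adjusted p = 0.0257).

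**Figure D4:**
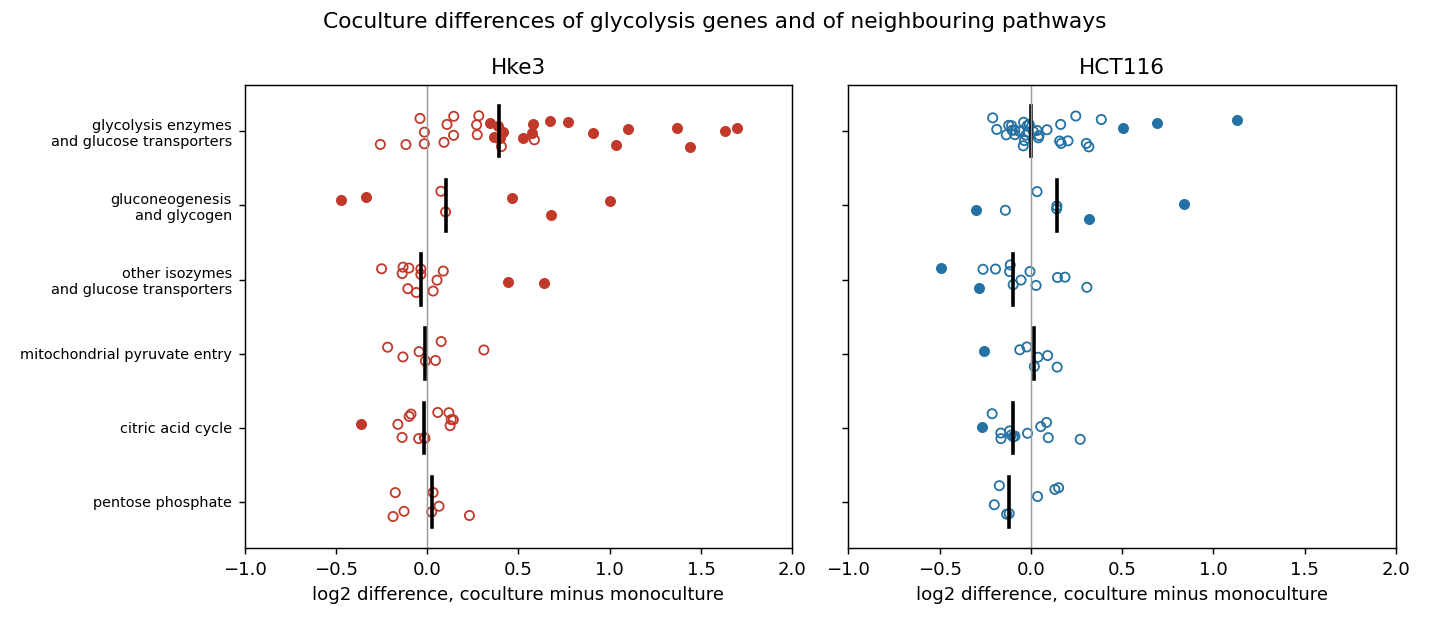
Log2 difference of coculture minus monoculture in Hke3 (left) and HCT116 (right) for the 32 glycolysis genes and 5 neighbouring gene lists; each circle is a gene, filled where the adjusted p is under 0.05, and the bar is the list's median. The glycolysis median is 0.39 in Hke3 and 0.00 in HCT116, the glycogen list has genes past the threshold on both sides of 0 in both lines, and the other lists centre near 0.

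Of 6 tested regulators of glucose use and oxygen sensing, 2 rose in Hke3 and 2 in HCT116. Over all genes tested, 4.09% rose in Hke3 and 7.66% in HCT116. EGLN3, an oxygen-sensing prolyl hydroxylase, rose by 1.58 ± 0.15 in Hke3 (adjusted p = 0.00209, limma) and differed by 0.18 in HCT116. ARRDC4, an arrestin-related gene that responds to glucose, rose in both lines, by 0.61 in Hke3 (adjusted p = 0.0303) and by 1.80 ± 0.12 in HCT116 (adjusted p = 0.00127). VHL, which marks hypoxia-inducible factors for destruction, rose by 0.52 in HCT116 (adjusted p = 0.00879). Of 3 hypoxia-induced genes outside the pathway, ANKRD37 (2.45 ± 0.19, adjusted p = 0.00134) and NDRG1 (1.77 ± 0.20, adjusted p = 0.00453) rose in Hke3, and VEGFA, an angiogenic growth factor, differed by 0.18 (adjusted p = 0.361). In HCT116 NDRG1 (0.99 ± 0.20, adjusted p = 0.0202) and VEGFA (0.55, adjusted p = 0.0192) rose, and ANKRD37 differed by 0.33 (adjusted p = 0.282). These 3 genes were chosen with earlier results of these data known. They are thus no independent reading of hypoxia, which was not tested.

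Other probe sets of the same genes mostly pointed the same way. The 18 genes that rose in Hke3 have 25 further probe sets, dim ones included, of which 22 had the sign of the one used. The 3 exceptions were both further sets of HK2 (-0.26 and -0.16 log2) and that of PFKP (-0.08, at most 5.38 log2 on any array). Sizes varied between sets: PFKFB4's further set gave 1.07, those of PDK1 1.17 and 0.14, and those of PDK3 0.21 to 0.93. The 5 further sets of PGK1 gave 0.65 to 1.09, above the 0.53 of the set used. Of the sets used, those of SLC2A3, ALDOA, GAPDH and LDHB carry the x_at ending, which marks probes that can match other transcripts. The part of related sequences in their signal was not tested.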

How the data were processed

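Per the labels, total RNA was labelled with biotin and hybridised to 1-colour Affymetrix arrays, 1 array per condition. Per the submitters' processing notes, the authors used RMA and affy, with no version; the deposited values are log2 intensities per probe set. The lowest deposited value was 2.98 and the highest 15.15; array medians ran from 6.15 to 6.21. Whether the authors normalised all arrays together is not given in the sources used here. Arrays were grouped by title. The array annotation gave 1 symbol for 41097 of 54675 probe sets, several for 1801 and none for 11777; 41043 matched a RefSeq gene ID. Each gene is its probe set with the highest mean over 10 arrays.

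Genes above 6.18 log2 on at least 1 array of a fit were tested with limma 3.58.1 in R 4.3.3, two-sided, with Benjamini-Hochberg adjustment over all genes and a threshold of 0.05. Coculture, vitamin D3 and line were additive terms over 8 arrays; effects within a line and the line difference came from the same model plus the line by coculture term. THP1 was compared over 10 arrays. The ± values are limma standard errors. With 10 arrays and no read counts, precision is set by how many arrays there are. The rule named all 32 genes with a probe set, up to 4 per neighbouring list, 3 hypoxia-induced genes and CYP24A1. PCK2, PYGL, SRGN, PTPRC, ITGAM and CDX1 fall outside it and were named after their values were seen. The genes and lists were chosen with earlier results of these data known. The fit was tested on simulated data. Motifs were counted on both strands of 300-base windows from RefSeq. Alternatives were the filter, the probe set, the scaling, the variance model, leaving out arrays, a block and no vitamin D3 term. The comparison of protein sequences was not run. Figures were drawn with matplotlib 3.10.9.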

Additional observations from a re-analysis of the deposited data

Results flagged for a closer look

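For 10 genes the coculture difference of Hke3 and that of HCT116 differed by the test of the difference itself (limma, line by coculture term, adjusted p under 0.05, log2 values of Hke3 minus HCT116). The difference was 1.75 for PFKFB4, 1.27 for ENO2, 1.19 for ALDOC, 1.16 for HK2 and 1.05 for PDK1. It was 0.63 for HK1, 0.58 for PGAM1, 0.57 for PDK3, 0.53 for ALDOA and 0.49 for PFKP. PFKFB4 and ALDOC passed under all 16 alternatives tried for this test, with adjusted p up to 0.0319 and 0.0483. HK1, PFKP, ALDOA, PGAM1 and PDK3 did not pass whichever 1 of the 8 cancer arrays was left out.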

How the results depend on the processing

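The labels give no replicate numbers to pair by; arrays were paired only by the other 2 factors, as a block. Among the 32 genes, 4419 of 5028 recomputed values kept their direction and their side of the threshold, 268 no longer passed, 85 newly passed, 253 changed sign without a call on either side and 3 reversed. The reversals came when all sets of a gene were averaged: PDK2 in Hke3 against HCT116 (-0.16; -0.23 without coculture) and PDK3 in THP1 against the cancer lines (0.59); the cause was not tested. PFKFB4, ALDOC, ENO2, PDK1 and PDK3 rose in cocultured Hke3 under all 16 alternatives. PKM held in 6 of 16 and TPI1 in 7. With the mean of its probe sets HK2 gave 0.23 in Hke3 and PFKP 0.25, and neither passed.

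Without 1 array, the genes of the 32 called numbered 0 to 5 for coculture in both lines, 6 to 17 in Hke3, 0 to 3 in HCT116, 2 to 5 for the line difference, and 10 to 19 for Hke3 against HCT116. Over all genes the counts were 39 to 459, 118 to 676, 126 to 1872, 101 to 282 and 4140 to 4668. They were 2235 to 4154 for the lines without coculture, 3161 to 4939 in coculture, and 0 to 1 for the dependence of coculture on vitamin D3, where the mean of probe sets called 2. HCT116 called 0 of the 32 without its cocultured array with vitamin D3 or either of its monocultures, so HKDC1, ALDOC and PDK4 each lose their call there. An arm left with 1 array is assumed to vary like the others.

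For coculture in both lines the 32 genes gave 4 calls with no filter or with the mean of probe sets, 2 with all probe sets tested singly and 0 with the block; all genes gave 656 with no filter and 259 with the block, against 1035. For Hke3 all genes gave 446 with no filter, 1835 with all probe sets tested singly and 1599 under trend and robust eBayes, against 946. For HCT116 no filter gave 1261, against 2116. For the line difference the 32 genes gave 5 with no filter, 16 with the filter at 8.14 log2 and 17 under trend and robust eBayes, against 10; all genes gave 277, 973 and 1169, and 839 with each probe set, against 557. Each probe set on its own, a longer table, gave 11935, 9755, 10839 and 20725 calls for the lines over both cultures, without coculture, in coculture and for THP1, against 5364, 4320, 5108 and 9478. Cyclic loess raised the share of calls that were higher to 66.1% from 48.1% for coculture in both lines, to 67.7% from 57.2% in Hke3 and to 62.7% from 48% in HCT116, with 8, 19 and 4 of the 32 genes higher. For HCT116 trend and robust eBayes called 4 of the 32, 2 higher and 2 lower.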
